A study of Mus musculus with 6 samples.

Results

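The guanylate-binding protein (GBP) genes described here are 8 genes, Gbp2, Gbp2b, Gbp3, Gbp4, Gbp5, Gbp6, Gbp7 and Gbp9, in mouse 4T1 cells treated with the kinase inhibitor TKI258. They were chosen by their differences between TKI258 and DMSO on these same arrays, so those differences are given as a description, without a test. A gene was measured by the brightest of the probe sets that carry its symbol alone, which gave values for 6 of the 8 genes among 19938 genes in all. Gbp2 and Gbp6 are carried only on probe sets shared with other GBP genes.

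4T1 is an established mouse mammary carcinoma cell line, and TKI258 (dovitinib) inhibits several receptor tyrosine kinases, among them the FGF, VEGF and PDGF receptors. The study set cells that received TKI258 at 500 nM for 16 h (3 arrays) against cells that received only the solvent, DMSO, for the same 16 h (3 arrays). In both groups 750000 cells were seeded per dish, grown for 24 h and kept in medium with 10% serum throughout, and each array held RNA from a dish of its own. Every array thus came from a single cell line, at 1 dose and 1 time, in a culture to which no other cells were added. Each array was an Affymetrix chip hybridised with 1 RNA sample. The labels name no added interferon.

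GBPs are large GTPases of the dynamin superfamily that interferons induce, interferon gamma most strongly. They assemble on the vacuoles of intracellular bacteria and parasites and on the bacteria themselves, where they help to break these membranes open and to activate inflammasomes, and some members are anchored to membranes by a prenyl group at their C terminus. In mouse cells interferon gamma acts through its receptor and the kinases Jak1 and Jak2 and induces the factor Irf1, which drives GBP transcription.

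The genes lie in 2 clusters. In the reference gene table the order on chromosome 3 was Gbp5, Gbp7, Gbp3, Gbp2b and Gbp2, followed by the pseudogene Gbp2-ps, and on chromosome 5 it was Gbp8, Gbp9, Gbp4, Gbp10, Gbp6 and Gbp11. RefSeq promoter windows of the GRCm38.p6 build, covering 250 bases before to 50 after the start of the gene, matched 5 of the 8 genes, namely Gbp2, Gbp2b, Gbp3, Gbp5 and Gbp7. Gbp4, Gbp6 and Gbp9 had no entry. The stretches below are shown because all 5 matched genes held, within the 250 bases before their start, the letters GAAANNGAAA on the reverse strand. This is the core of the interferon-stimulated response element, the type of sequence that Irf1 and other IRF factors bind. Each is the plus strand of GRCm38.p6, 5′ to 3′, with the motif in capitals, so that it reads TTTCNNTTTC.
Gbp5, chr3:142496734-142496793: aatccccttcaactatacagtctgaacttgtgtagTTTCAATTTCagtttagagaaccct
Gbp7, chr3:142530248-142530307: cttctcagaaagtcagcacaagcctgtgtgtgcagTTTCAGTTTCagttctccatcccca
Gbp3, chr3:142559964-142560015: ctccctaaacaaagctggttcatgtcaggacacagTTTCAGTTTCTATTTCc
Gbp2b, chr3:142594675-142594734: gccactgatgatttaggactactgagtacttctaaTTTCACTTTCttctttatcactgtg
Gbp2, chr3:142620569-142620628: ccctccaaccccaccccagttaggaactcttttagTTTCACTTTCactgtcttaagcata
The first capital lay 165 bases before the start in Gbp5, 53 in Gbp7, 45 in Gbp3, 137 in Gbp2b and 59 in Gbp2. In Gbp3 the capitals hold 2 overlapping matches, and the window of a second, downstream start of Gbp3 held none. Over all 32851 promoter windows, searched on both strands, 978 held the motif (2.98%).

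A second motif, TTCNNNGAA, the core of the interferon gamma-activated sequence, was searched on both strands in the same way. It occurred at 2 places in Gbp5, 245 and 52 bases before the start, and at 2 places in Gbp7, 106 and 87 bases before it. The letters were found 0 times in the windows of Gbp3, Gbp2b and Gbp2, and in 2306 of all windows (7.02%). A match describes letters only.

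Of the 19938 genes, limma called 14.4% higher and 12.6% lower in TKI258-treated cells (Benjamini-Hochberg adjusted p below 0.05). A log2 difference of at least 1 was reached by 1.45% of genes, and in 21.4% every TKI258 array lay above every DMSO array. The arrays correlated at 0.997 to 0.998 within a group and at 0.988 to 0.990 between groups, and array medians lay between 4.97 and 5.04. Of 10 genes that report signalling through the kinase ERK, 9 fell (limma, adjusted p below 0.05), with a median log2 difference of −0.92.

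All 6 measured GBP genes were higher in the TKI258-treated cells, by 1.30-fold for Gbp5 to 6.97-fold for Gbp2b. The median log2 difference of the 6 genes was 1.77, beside 0.01 over all genes. At least 2-fold higher were 5 of the 6, beside 1.45% of all genes. limma called 6 of the 6 genes higher, a count to set beside the 14.4% of all genes and one that the choice of the genes had already fixed. In each of the 6, every TKI258 array lay above every DMSO array, as was so for 21.4% of all genes. The choice of the genes bears on these counts as well. In bulk RNA of this kind, more cells carrying a transcript and more of it per cell cannot be told apart.

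Gbp2b, a prenylated GBP long known as Gbp1, had the largest difference of the 6. Its log2 signal was 4.42, 4.70 and 4.65 on the DMSO arrays and 7.21, 7.37 and 7.59 on the TKI258 arrays. The group means were 4.59 ± 0.15 (SD, n = 3) and 7.39 ± 0.19 (SD, n = 3). The lowest TKI258 array stood 2.51 above the highest DMSO array. The log2 difference was 2.80 (SE 0.11 from limma), which placed Gbp2b at rank 10 of all genes by size of increase.

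Gbp3, its neighbour in the chromosome 3 cluster, read 4.71, 4.43 and 4.60 with DMSO and 7.15, 7.04 and 7.54 with TKI258. The groups were far apart, with TKI258 replicate 3 the highest array. The means of 4.58 ± 0.14 and 7.24 ± 0.26 (SD, n = 3 each) differed by 2.66 on the log2 scale (SE 0.13), a 6.34-fold change at rank 12.

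Gbp7, a GBP that takes part in killing bacteria in macrophages, read 4.97, 4.59 and 4.74 with DMSO and 6.74, 6.95 and 7.30 with TKI258. The groups again stood apart, by 1.77 between their nearest arrays. The means were 4.76 ± 0.19 and 7.0 ± 0.29 (SD, n = 3 each) and the log2 difference was 2.23 (SE 0.14), or 4.70-fold, at rank 19.

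Gbp5, known for promoting assembly of the NLRP3 inflammasome, was the exception in this cluster. It read 3.20, 3.27 and 3.21 with DMSO and 3.62, 3.62 and 3.58 with TKI258. These values stayed close to the lower quartile of all probe sets (3.50) in both groups, and the 3 TKI258 arrays were above all DMSO arrays by at least 0.31. The means of 3.22 ± 0.04 and 3.61 ± 0.03 (SD, n = 3 each) differed by 0.38 (SE 0.06), or 1.30-fold, at rank 1760.

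On chromosome 5, Gbp4, a GBP reported to restrain the factor Irf7, varied most. It read 3.68, 3.43 and 3.35 with DMSO and 4.22, 4.75 and 5.42 with TKI258, so the treated arrays spanned more than a log2 unit while none overlapped the controls. The means were 3.49 ± 0.17 and 4.80 ± 0.60 (SD, n = 3 each) and the log2 difference was 1.31 (SE 0.25), or 2.48-fold, at rank 132. The DMSO mean lay at the lower quartile of all probe sets (3.50), where signal over background is least, so the fold is less certain than for the brighter genes. Leaving out each array in turn gave log2 differences for Gbp4 of 1.00 to 1.60.

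Gbp9, the gene beside it, had almost the same difference with a smaller spread. Its log2 signal was 4.99, 5.09 and 4.75 with DMSO and 6.34, 6.05 and 6.36 with TKI258. The arrays of the groups were separated by 0.95. The means of 4.95 ± 0.17 and 6.25 ± 0.17 (SD, n = 3 each) differed by 1.30 (SE 0.11), or 2.47-fold, at rank 136.

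**Figure D1:**
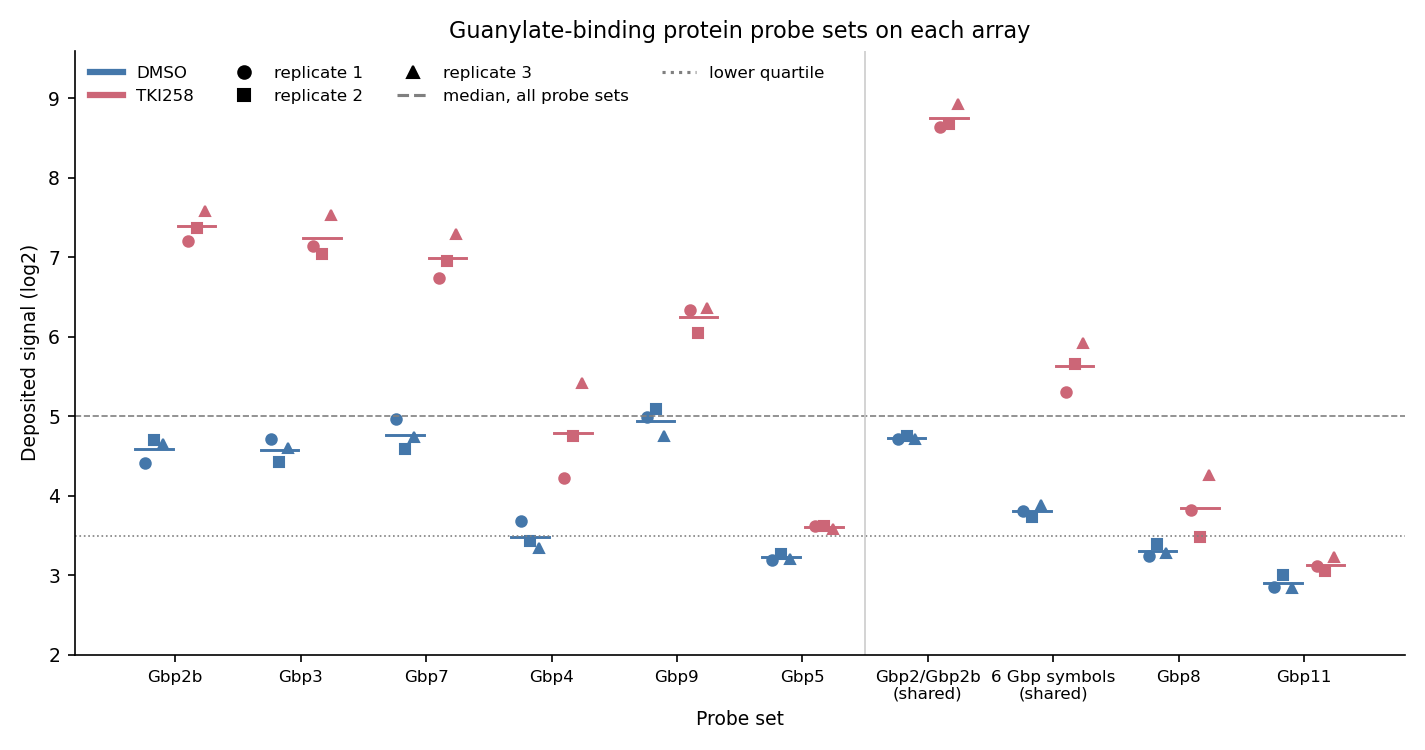
Deposited log2 signal (vertical axis) of each GBP probe set on the 6 arrays, DMSO in blue and TKI258 in red, with the marker shape for the replicate number and a short line for the group mean (n = 3). Left of the grey line are the 6 genes with a probe set of their own and right of it the shared probe sets, Gbp8 and Gbp11. Every TKI258 point lies above the DMSO points of the same probe set. The dashed and dotted lines are the median (5.01) and lower quartile (3.50) of all probe sets.

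Ordered by the size of the log2 difference, the genes ran Gbp2b, Gbp3, Gbp7, Gbp4, Gbp9 and Gbp5. Gbp2b and Gbp3 differed by 0.14, less than their combined standard error of 0.17, and Gbp4 and Gbp9 by 0.01, with a combined standard error of 0.27. The other steps were larger than their errors. Gbp3 and Gbp7 were 0.43 apart (combined SE 0.19), Gbp7 and Gbp4 0.92 apart (0.29), and Gbp9 and Gbp5 0.92 apart (0.13). Levels of different genes come from different probes and were not ranked. Against the median of all probe sets, the DMSO mean was below it for 6 of the 6 genes, and the TKI258 mean was above it for 4 of them, with Gbp4 and Gbp5 the remaining ones.

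The TKI258 dishes were not alike in the GBP genes. TKI258 replicate 3 was the highest array of its group in 5 of the 6 genes (83.3%), Gbp5 being the other. Among all genes the same array was highest in 41.7%, and among the genes called higher in 52.1%. Its median excess over the mean of the other two TKI258 arrays was 0.37 log2 units in the GBP genes, 0.02 over all genes and 0.06 over the genes called higher. The part of this array in the differences was measured by leaving it out, and the median log2 difference of the 6 GBP genes was then 1.66 in place of 1.77.

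Gbp2, a prenylated GBP that is recruited to the parasite vacuole in infected cells, could be read only on a probe set that it shares with Gbp2b. That set read 4.71, 4.75 and 4.71 with DMSO and 8.64, 8.68 and 8.93 with TKI258. It had the widest separation of any GBP probe set, 3.89 between the nearest arrays of the groups. The log2 difference was 4.03 (SE 0.09), or 16.3-fold, larger than the 2.80 of the probe set that carries Gbp2b alone. The shares of Gbp2 and Gbp2b in this signal cannot be told apart on the set itself.

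Gbp6, another vacuole-recruited GBP, lies on a probe set that carries 6 symbols, Gbp4, Gbp6, Gbp8, Gbp9, Gbp10 and Gbp11. The set read 3.81, 3.74 and 3.89 with DMSO and 5.31, 5.66 and 5.92 with TKI258, again without overlap, and the log2 difference was 1.82 (SE 0.15), or 3.52-fold. Gbp10 had no other probe set. GBP genes resemble one another closely in sequence, so probes assigned to one gene may also read transcripts of another, and values of single GBP genes are uncertain to that extent.

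Gbp8 and Gbp11, the genes at the ends of the chromosome 5 cluster, had probe sets of their own. Gbp8 read 3.24, 3.40 and 3.28 with DMSO and 3.82, 3.48 and 4.26 with TKI258, a log2 difference of 0.55 (SE 0.17) with only 0.08 between the groups. Gbp11, annotated as a transcribed pseudogene, read 2.86, 3.00 and 2.84 with DMSO and 3.12, 3.05 and 3.23 with TKI258, a log2 difference of 0.24 (SE 0.08). Both stayed below the median of all probe sets in each group, and Gbp11 below the lower quartile.

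The 12 nearest measured genes, 3 on each side of each cluster, had log2 differences from −0.38 to 0.41. limma called 2 of them higher and 3 lower, beside 14.4% and 12.6% of all genes, and counts this small are not read as a trait of the neighbours. Next to the chromosome 3 cluster, Pdlim5, which codes for a cytoskeletal adaptor, rose by 0.41 (limma, adjusted p = 0.00101), and Kyat3, a kynurenine aminotransferase, fell by 0.38 (limma, adjusted p = 0.00159). Bmpr1b (0.09), Unc5c (−0.16), Gtf2b (0.02) and Pkn2 (−0.11) did not pass. Of the genes coding for volume-regulated anion channel subunits beside the chromosome 5 cluster, Lrrc8b fell by 0.33 (limma, adjusted p = 0.0258), Lrrc8c fell by 0.30 (0.0204) and Lrrc8d rose by 0.35 (0.0097). The calls of Lrrc8b and Lrrc8c were each lost without DMSO replicate 1, 2 or 3, with adjusted p-values over the alternatives of 0.00689 to 0.12 and 0.00247 to 0.0818. Abcg3 (0.16), Zfp951 (−0.05) and Thoc2l (−0.07) did not pass. Within the chromosome 3 cluster, Gbp5 (0.38) was nearer to its neighbour Pdlim5 than to Gbp7 (2.23). The levels were unlike, however. Gbp5 lay close to the lower quartile of all probe sets (3.50), where signal over background is least, and Pdlim5 had a DMSO mean of 9.98.

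**Figure D2:**
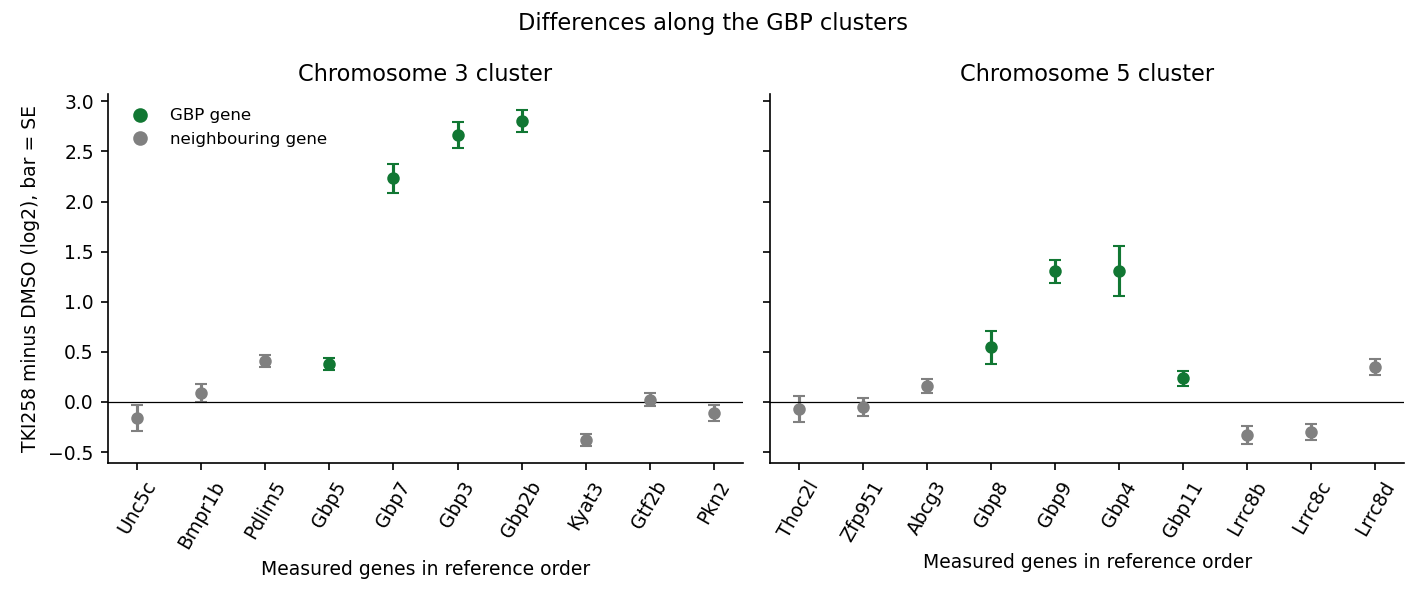
Log2 difference, TKI258 minus DMSO (vertical axis, bars are the standard error from limma), of the measured genes in reference order along the GBP clusters of chromosomes 3 and 5. GBP genes are green and the 3 nearest measured genes on each side grey; Gbp7, Gbp3 and Gbp2b stand at 2.23 to 2.80 while the 12 grey genes lie between −0.38 and 0.41.

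Genes of the pathways around the GBPs were read from 11 lists of 145 genes, of which 124 were measured. limma called 49 of the 124 higher, 7 lower and 68 neither, beside 14.4% higher and 12.6% lower over all genes, and their median log2 difference was 0.15. These lists were drawn up with earlier results of the same arrays known, so their counts are no independent evidence. The same 14.4% and 12.6% of all genes stand beside the counts of each list and of the cell type markers below. The count of 7 dropped to 4 when DMSO replicate 1 or 3 was left out, and also when replicate 1 or 2 of TKI258 was.

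Interferon genes come first in the pathway. Of 16 measured interferon ligands, 1 rose and 15 did not pass. Ifng, which codes for interferon gamma, had a log2 difference of 0.02 (limma, adjusted p = 0.885), and Ifnb1, interferon beta, one of 0.02 (0.845). The ligand that rose was Ifnz, interferon zeta, by 0.49 (limma, adjusted p = 0.00113). This gene has many near-identical copies, so its reading is uncertain. Of the 16 ligands, 13 had a mean signal below the array median.

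Of the 9 receptor and receptor kinase genes, 7 were called higher, and their median log2 difference was 0.36. Ifngr2, the signalling chain of the interferon gamma receptor, read 8.81, 8.83 and 8.96 with DMSO and 9.56, 9.55 and 9.49 with TKI258. It rose by 0.66 (SE 0.07; limma, adjusted p = 0.000106) with no overlap of the groups. Ifngr1, the chain that binds interferon gamma, had overlapping groups and a log2 difference of 0.11 (adjusted p = 0.552). The type I receptor chains Ifnar2 (0.61) and Ifnar1 (0.28), Il10rb (0.41) and the kinases Jak1 (0.47), Tyk2 (0.36) and Jak2 (0.28) passed at limma adjusted p-values of 0.000139, 0.0059, 0.00217, 0.000828, 0.00454 and 0.0106. Ifnlr1, the remaining member, did not pass at 0.27 (adjusted p = 0.0784).

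Among the factors that act on GBP promoters, Irf1 had the largest difference. It read 7.65, 7.60 and 7.73 with DMSO and 8.91, 9.18 and 8.96 with TKI258, well apart, and rose by 1.36 (SE 0.08; limma, adjusted p = 7.11e-06). Of the 13 STAT and IRF genes measured, 5 rose and 1 fell. Stat2 (1.03, adjusted p = 2.62e-05) and Irf9 (0.98, adjusted p = 0.000103), which act together in response to type I interferon, rose, as did Stat3 (0.84, adjusted p = 2.16e-05) and Irf7 (1.05, adjusted p = 0.000113). Irf8, a factor best known from myeloid cells, was the one that fell, by 1.09 (limma, adjusted p = 0.000142). Irf7 and Irf8 are named because the counts were small, after their values were seen.

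Of 12 inhibitors of the pathway, 3 were called higher and 2 lower, beside 14.4% and 12.6% of all genes. Counts this small are not read as a trait of the list. Socs1 (−0.05, limma adjusted p = 0.686) and Socs3 (−0.07, adjusted p = 0.731), the feedback inhibitors of the receptor kinases, did not pass. Socs2 rose by 0.52 (adjusted p = 0.000396), Cish by 0.42 (0.00644) and Pias3 by 0.37 (0.00449), each by limma. The phosphatase genes Ptpn2 and Ptpn1, whose products remove phosphate from the kinases and STATs, fell by 0.32 (limma, adjusted p = 0.00431) and 0.26 (0.0332). The call of Ptpn2 was lost when all its probe sets were averaged, with adjusted p-values of up to 0.21 over the alternatives, and Ptpn1 was named after its value was seen. The call of Ptpn1 was lost when DMSO replicate 1 or 3 was left out, and when replicate 1 or 2 of TKI258 was, with adjusted p-values of 0.0101 to 0.121 over the alternatives.

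Other interferon-inducible GTPases act beside the GBPs on pathogen vacuoles, and only 6 of the 16 listed had a probe set of their own. Irgm1, a regulator of the immunity-related GTPases, was the 1 of 6 that rose. It read 6.55, 6.64 and 6.53 with DMSO and 7.99, 8.13 and 8.31 with TKI258, and the log2 difference was 1.57 (SE 0.09; limma, adjusted p = 3.89e-06), within the range of the GBP genes. Mx1 (−0.12), Iigp1 (−0.09), Mx2 (0.07), Gm12250 (−0.05) and Gm4951 (0.03) did not pass. These 5 all had a mean signal below the array median, with DMSO means from 2.78 (Gm4951) to 4.03 (Gm12250), where signal over background is least. A probe set shared by Irgm2 and Igtp, which are regulators of the same kind, read 4.21, 4.42 and 4.10 with DMSO and 5.61, 5.61 and 6.0 with TKI258, a log2 difference of 1.50 (SE 0.14). The sets shared by Tgtp1 and Tgtp2, GTPases that load onto vacuoles, had log2 differences of 0.29 and 0.24 with overlapping groups. The set shared by Ifi47, another such GTPase, and Olfr56 read 2.98, 3.13 and 2.75 with DMSO and 3.58, 3.53 and 3.45 with TKI258, a log2 difference of 0.57 (SE 0.11) without overlap. Where sets with several symbols could stand for a gene, 14 of the GTPases were measured and 4 were called higher by limma, Irgm1, Irgm2, Igtp and Ifi47, with Irgm2 and Igtp on the same set. Of 4 measured relatives that are not known for induction by interferon, Atl1 (1.02, adjusted p = 0.000231), Atl3 (0.39, adjusted p = 0.00162) and Irgq (0.35, adjusted p = 0.0101) rose by limma. The atlastins Atl1 and Atl3 are GTPases that fuse endoplasmic reticulum membranes.

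Prenylation, the lipid attachment that some GBPs need, was the one of the 11 lists with falls and no rises. Of its 8 genes, 4 were called lower and 0 higher, beside 12.6% and 14.4% of all genes. The count of 4 ran from 1 to 5 with each array left out, and was 1 at an adjusted p below 0.01. Rabggtb, the catalytic subunit of the Rab geranylgeranyl transferase, fell by 0.51 (limma, adjusted p = 0.000844). Zmpste24 (−0.29, adjusted p = 0.0162), a protease of prenylated proteins, Fntb (−0.24, adjusted p = 0.0214), the farnesyltransferase beta subunit, and Rabggta (−0.26, adjusted p = 0.0301) were close to the threshold. The call of Zmpste24 was lost without DMSO replicate 1 or 2, that of Fntb without DMSO replicate 1 or 3 or TKI258 replicate 1 or 2, and that of Rabggta without any 1 DMSO array or TKI258 replicate 1 or 2. Over the alternatives their adjusted p-values ran from 0.0013 to 0.178, 0.00666 to 0.0861 and 0.0118 to 0.104. Zmpste24 also lost its call when all its probe sets were averaged. Fnta (0.08) and Pggt1b (0.15), which together with Fntb make up the enzymes that modify most CaaX proteins, did not pass.

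Of 12 genes of the ATG conjugation system, which helps to deliver GBPs to vacuoles, 4 rose and none of the 12 fell by limma. These were genes for ubiquitin-like proteins conjugated to lipid, Map1lc3a (1.14, adjusted p = 1.68e-05), Map1lc3b (0.78, adjusted p = 5.03e-05), Gabarap (0.70, adjusted p = 6.34e-05) and Gabarapl1 (0.60, adjusted p = 0.00521). Gabarapl2, another gene of this kind, did not pass (0.14, limma adjusted p = 0.222). Of 12 inflammasome genes, which act downstream of GBPs, 4 rose and 0 fell, beside 14.4% and 12.6% of all genes. A mean signal below the array median was found for 9 of the 12. Casp4 (0.99, adjusted p = 0.00058), which codes for the sensor of cytosolic lipopolysaccharide, Casp1 (0.96, adjusted p = 0.000414), the inflammasome protease, and Il18 (0.73, adjusted p = 0.000324), a cytokine that it matures, were among them. Naip6 rose by 0.43 (limma, adjusted p = 0.0187), a call that was lost without DMSO replicate 1 or 3 or TKI258 replicate 2 or 3, with adjusted p-values of 0.00137 to 0.129 over the alternatives. The 8 that did not pass included Gsdmd, the pore-forming protein (0.25, limma adjusted p = 0.0609), Nlrp3 (−0.09) and Pycard (0.07). Nlrp3 and Pycard lay at 3.75 and 3.67 with DMSO.

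The lists of interferon target genes held the most calls by number. They were also longer than the receptor and kinase list, with 7 of 9 called higher, and the relatives not known for induction by interferon, with 3 of 4. Of 17 measured type I interferon-stimulated genes, 11 rose, and the median log2 difference was 0.60. The 6 that did not pass were Rsad2 (−0.02), Oasl1 (0.02), Oas1a (0.21), Oas2 (−0.12), Oas3 (0.31) and Cxcl10 (0.08). Rtp4 (1.88, adjusted p = 2.97e-06), the RNA sensors Ddx58 (1.29, adjusted p = 5.46e-06) and Ifih1 (1.09, adjusted p = 7.11e-06) and Ifit2 (1.23, adjusted p = 2.49e-05), which binds viral RNA, had the smallest limma p-values. Of 15 measured antigen presentation genes, 10 rose, with a median of 0.80. The 5 that did not pass were H2-Aa (−0.03), H2-Ab1 (0.25), H2-Eb1 (−0.06), H2-DMa (0.23) and Cxcl9 (0.21). Tapbp (1.50, adjusted p = 1.43e-06) and Tap2 (1.54, adjusted p = 6.71e-06), parts of the peptide loading complex, and the proteasome activator genes Psme1 (0.80, adjusted p = 2.8e-05) and Psme2 (1.16, adjusted p = 3.2e-05) led this list in the limma fit. The difference of Tapbp turned to −0.052 where probe sets with several symbols could stand for a gene. The GBP genes Gbp2b, Gbp3 and Gbp7 had larger log2 differences than any of the 124 genes on these lists. As the GBP genes were chosen by this same difference, their place above the lists is a description only.

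**Figure D3:**
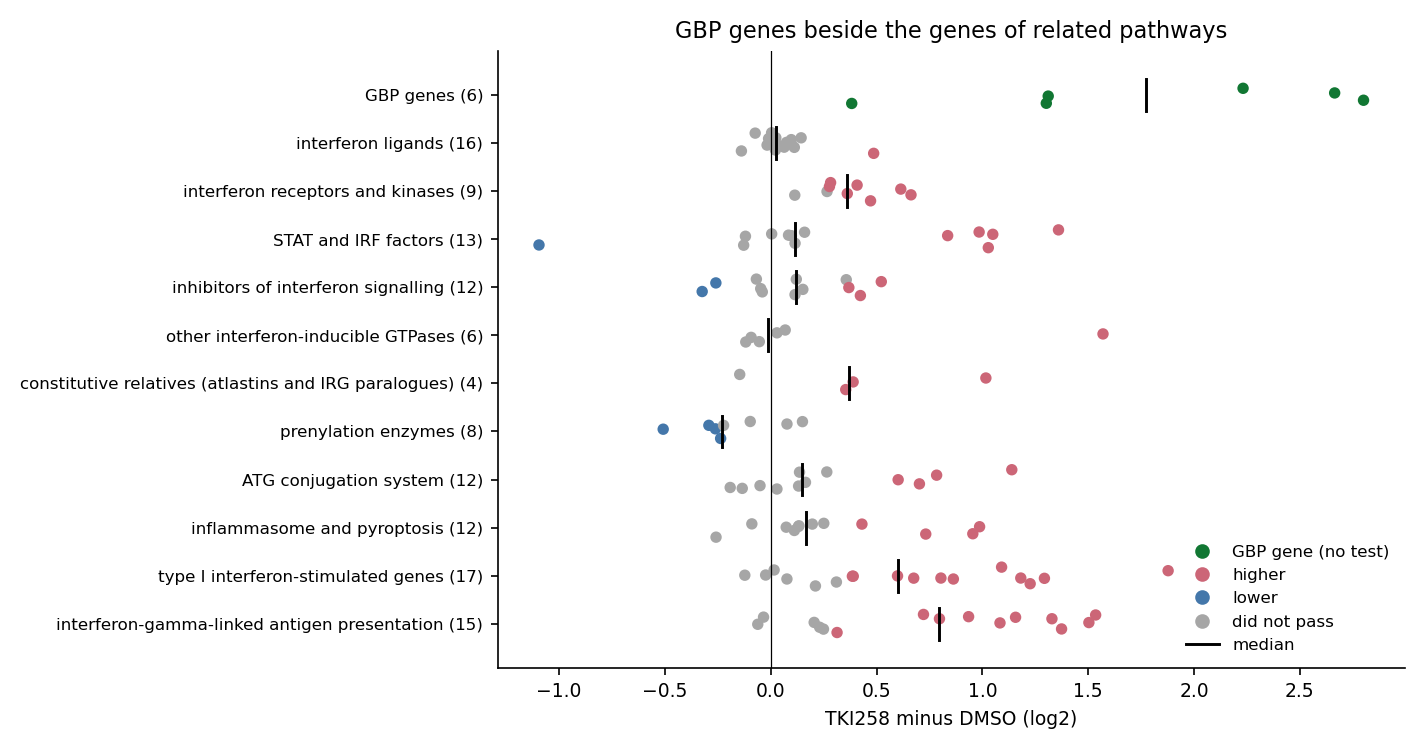
Log2 difference, TKI258 minus DMSO (horizontal axis), of the 6 measured GBP genes (green) and of the measured genes of the 11 pathway lists, 1 point a gene, with the number of measured genes in brackets. Red points were called higher and blue points lower by limma at an adjusted p below 0.05, grey points did not pass, and black bars are medians. The GBP median stands at 1.77, beside 0.80 for antigen presentation, 0.60 for type I interferon-stimulated genes and 0.02 for interferon ligands. The GBP genes were chosen by this difference.

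The motif shown above for the 5 promoters was also set against the differences over the array, with the GBP genes left out. Of 527 measured genes that held it, 15% were called higher and 9.3% lower, and of 15083 genes without it 14.7% and 13.0%. For TTCNNNGAA the shares were 14.4% and 11.7% of 1202 genes with it and 14.7% and 13.0% of 14408 without it. Among the 5 promoters, Gbp2b and Gbp5 held the first motif 137 and 165 bases before the start, the farthest of the 5, and their log2 differences were 2.80 and 0.38.

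Across the 6 arrays, the gene most like the mean of the 6 GBP genes was Ube2l6, the conjugating enzyme for the ubiquitin-like protein Isg15. Likeness was the root mean square distance between profiles each centred on its own mean, and it was 0.06 log2 units for Ube2l6 beside a median of 0.90 over all genes. Ube2l6 read 6.28, 6.30 and 6.33 with DMSO and 7.97, 8.08 and 8.31 with TKI258. The next 5 genes were Trp53inp2 and Ssbp2 (0.07 each) and H2bc4, Bdh2 and Cmbl (0.09 each), with log2 differences of 1.69, 1.73, 1.72, 1.91 and 1.81. The GBP genes themselves stood farther from their own mean, from 0.25 for Gbp7 to 0.72 for Gbp5. With only 2 groups, this distance follows mainly the size of the difference.

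**Figure D4:**
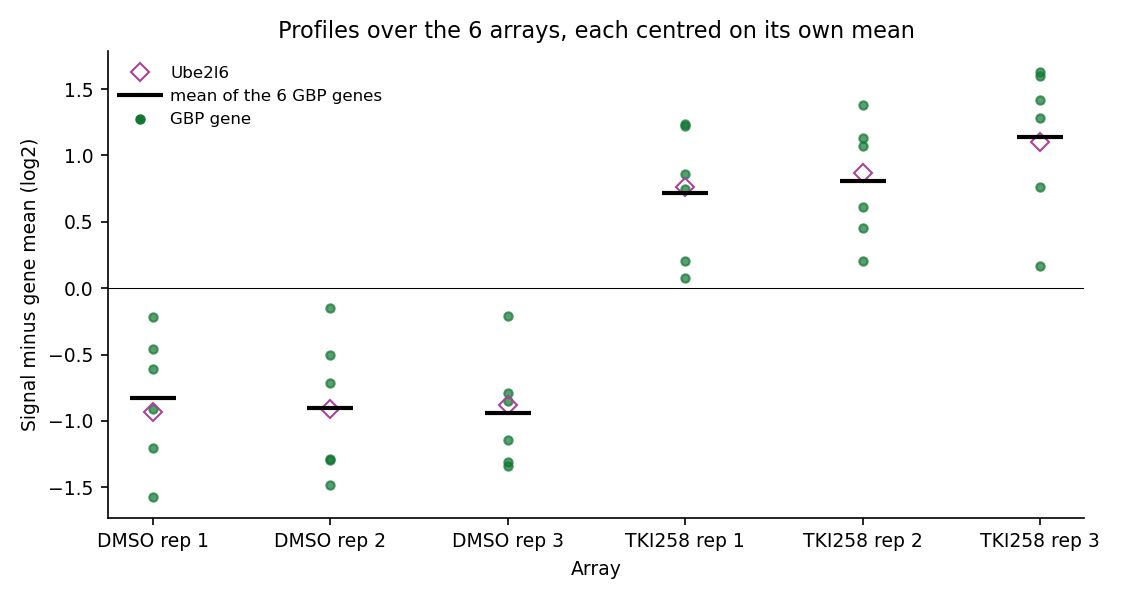
Log2 signal minus the mean of the same gene (vertical axis) on each of the 6 arrays. Green points are the 6 GBP genes, black bars their mean and open diamonds Ube2l6. The bars lie at −0.83, −0.90 and −0.94 on the DMSO arrays and at 0.72, 0.81 and 1.14 on the TKI258 arrays.

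Markers of cells that express GBPs at high levels in tissues were read in the same arrays. Of 11 macrophage markers, Cd68 (0.82) and Cd14 (0.74) rose and Mrc1 fell by 0.63 (limma, adjusted p-values of 0.00206, 0.00475 and 0.000465), and 9 of the 11 had a mean below the array median. The calls of Cd68 and Cd14 were lost without moderated variances, at adjusted p-values of 0.0567 and 0.0828. The summed linear signal of the 11 was 287 to 306 with DMSO and 351 to 460 with TKI258. The defining markers Adgre1 (−0.09, adjusted p = 0.463) and Ptprc (−0.02, adjusted p = 0.881) did not pass, and lay at 3.53 and 3.76 with DMSO. Of 11 T, B and NK cell markers none passed by limma, with sums of 179 to 186 and 178 to 194, and 10 of the 11 had a mean below the array median. Endothelial markers summed to 443 to 464 and 555 to 587, with 1 of 8 called higher (Eng, 0.43). Eng had the highest mean signal of the 8, and the other 7 had a mean below the array median. Fibroblast markers summed to 554 to 587 and 1170 to 1250, with Pdgfra (1.50) and Dcn (2.01) the 2 of 8 called higher. Lum, Pdgfrb, Thy1, Col1a1, Col1a2 and Col3a1 did not pass. Pdgfra had the highest mean signal of the 8, with log2 means of 8.33 with DMSO and 9.83 with TKI258. A linear sum follows its brightest genes most, so it need not describe the list as a whole. Epithelial markers, the defining ones for 4T1, summed to 8110 to 8910 and 7880 to 8510, with 5 of 10 called higher and 2 lower. Krt14 (1.79), Cdh1 (1.09), Krt19 (0.94), Cldn4 (0.89) and Cldn3 (0.24) rose, Krt18 fell by 0.50 and Krt7 by 0.39, and Epcam (−0.04), Krt8 (−0.11) and Krt5 (−0.09) did not pass. The call of Cldn3 was lost in each fit without 1 array other than TKI258 replicate 2, with adjusted p-values of 0.0095 to 0.104 over the alternatives. The part of these markers in the GBP differences was not tested.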

How the data were processed

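The deposited values were used as given, 1 per probe set and array. RMA, affy and limma are named per the submitters' processing notes, without versions, and the authors' deposited values were taken as log2 signal from their range of 1.62 to 13.96, as no source used here states the scale. Of 35557 probe sets, 21789 carried 1 gene symbol in the platform annotation, 1621 several and 12147 none. The brightest single-symbol probe set over the 6 arrays stood for each of 19938 genes. TKI258 was compared with DMSO (3 arrays each) with limma 3.58.1 in R 4.3.3 (lmFit, eBayes, two-sided, Benjamini-Hochberg over all genes, adjusted p below 0.05). The number of arrays limits the precision. On simulated data for this comparison with 19938 genes, calls recovered 4 of 50 genes changed by 0.25 log2 units and 45 of 50 at 0.5. They recovered 50 of 50 at 1 and 50 of 50 at 2, with 13 calls of unchanged genes. The changed genes there were a far smaller share than the 14.4% and 12.6% called in the data. The Benjamini-Hochberg threshold was therefore stricter in the simulation, and its recovery of small changes does not carry over to the data.

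The members and lists were chosen with earlier results of these data known. Named pathway genes were 15 chosen by name and, per list, up to 4 called genes with the smallest adjusted p; 1 of those chosen by name is not reported here. The 3 neighbours per cluster side and the 6 most alike genes were named too. Alternatives left out each array, blocked on replicate number, and changed the normalization, filter, probe set rule and variance model.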

Additional observations from a re-analysis of the deposited data

How the results depend on the processing

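The median log2 difference of the GBP genes, 1.77, ran from 1.66 to 1.98 with each array left out. It was 2.45 when genes with a mean below the array median were dropped, which left 4 of the 6 GBP genes; these passed only through their TKI258 arrays, so the filter itself raised the median. It was 2.02 when probe sets with several symbols were used too. Adding the shared GBP sets as features, an alternative chosen after seeing the data, also gave 2.02. The 7 pathway genes called lower ran from 4 to 9 with each array left out, and were 4 without moderated variances and 3 at an adjusted p below 0.01. The difference of Tapbp turned to −0.052 when several-symbol sets were used, because a brighter set shared with another gene then stood for it. Without moderated variances 5 GBP genes were called, and Cish, Irgq, Gabarapl1, Zmpste24, Rabggta, Naip6, Lrrc8b, Lrrc8c, Lrrc8d, Cd68, Cd14, Ptpn1, Krt7 and Cldn3 lost their calls; Jak2 lost its call at an adjusted p below 0.01. With the replicate number as a replicate block, 52 pathway genes were called higher and 7 lower, beside 49 and 7 without it, and over all genes 2877 and 2487, beside 2866 and 2519. Deviations of same-numbered arrays correlated at 0.02, 0.05 and 0.15, so the numbers were not taken to pair the dishes. Dim probe sets, among them those of Gbp4 (with DMSO), Gbp5, Gbp8 and Gbp11, have the least signal over background.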

Other observations

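The excess of TKI258 replicate 3 over the other TKI258 arrays, seen in the GBP genes, differed between the lists, as looked up after the values were seen. It was the highest TKI258 array in 9 of the 10 antigen presentation genes called higher and in 3 of the 4 inflammasome genes called higher, with median excesses of 0.21 and 0.30 log2 units. Casp4, for example, read 6.53, 6.67 and 7.12 on the TKI258 arrays. Among the 11 type I interferon-stimulated genes called higher it was the highest array in 1 and the lowest in 3, with a median excess of 0.02. Ddx58 read 9.06, 8.92 and 8.88, with replicate 3 the lowest. The difference between the lists was not tested.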
